A study of Mus musculus with 8 samples.

Results

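The complement and coagulation genes of the mouse kidney are described here: the 44 genes, carried by 63 probes of a gene expression array, that encode complement proteins and their receptors and regulators (25 genes) or proteins of clotting, its inhibition and fibrin breakdown (19 genes). They were chosen by gene symbol, with older names such as C1s for C1s1 included. The rule used no values, but earlier results of these data were known when the genes were chosen. RNA of whole kidneys came from CD-1 mice, an outbred laboratory stock. The 4 control samples were from mice given physiological serum and the 4 other samples from mice given tacrolimus, a calcineurin inhibitor used against transplant rejection, at 1 mg/kg/d for 28 days. The labels name no allele, age or sex. They number the samples of each group as replicates without naming animals, so that p-values measure only the spread between these samples, which may be technical. Levels are log2 intensities on a scale where 0 is the 75th percentile of all non-control spots on an array, and levels of different probes are not set against each other. Of the 44 genes, 38 were tested, among 25127 genes and transcripts in all, because they had a probe that 4 or more of the 8 arrays read well above background. The 6 others were Masp1, C8b, C9, C5ar1, F2 and F11.

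Complement is a cascade of blood proteins that marks and perforates targets. The classical pathway starts when C1q binds antibody or other ligands and the proteases C1r and C1s cut C4 and C2, the lectin pathway reaches the same step through MASP proteases, and the alternative pathway amplifies C3 cleavage through factor B and properdin. C3 fragments then tag surfaces and signal through receptors, and C5 to C9 form the membrane attack complex. Coagulation starts when tissue factor meets factor VII, runs through factor X to thrombin and ends in a fibrin clot cross-linked by factor XIII, while protein C restrains it and plasmin dissolves the clot. Most of these proteins in blood are made by the liver. The kidney also makes some of them itself, C1q being known as a product of macrophages.

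The kidney label was checked with 10 nephron marker genes, and all 10 were well above background on all 8 arrays. Depending on the array, 64.0% to 69.8% of spots exceeded background clearly and none was saturated. The number of arrays limits the precision. Control arrays lay in row 1 and tacrolimus arrays in row 2 of 1 slide, so that row and treatment cannot be told apart. Over all genes, 57 of 25127 (0.227%) passed an adjusted p under 0.05 in limma. That count was 7 without control replicate 2, 13 without control replicate 3, 13 without control replicate 4, 18, 22 and 33 without tacrolimus replicates 1, 2 and 3 in turn, and 56 and 46 without control replicate 1 or tacrolimus replicate 4.

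In the classical complement pathway, all 5 C1 genes, C4b and C3 stood above their control levels in tacrolimus kidneys at an unadjusted p under 0.05, and C2 did not pass. C3, the protein on which all complement pathways converge, was at 6.08-fold by its brightest probe and at 3.25-fold by a further probe. C4b was at 2.85-fold, the 3 C1q chains at 2.08-fold to 2.63-fold, and C1ra and C1s1 at 1.81-fold and 1.82-fold. Most genes of coagulation and fibrinolysis, 12 of the 17 tested, did not reach an unadjusted p under 0.05, but factor X (F10) stood at 2.99-fold, a value that depends on the background correction, and protein C (Proc) was lower. None of the 38 tested genes passed the adjusted threshold, the smallest adjusted p being 0.0527 for C1s1 in limma, against 0.227% of all genes. The members that passed numbered 6 with another background correction (normexp), 3 in the deposited table and 2 with a filter on all 8 arrays. With an intensity trend and robust estimation they numbered 6, and C1s1 and C3 were among them in each of these settings. Over all genes, the same settings gave 286, 181, 151 and 221 genes, in that order. No member passed with quantile normalization, without a filter or with the mean of probes. The same held with adipocyte marker level as a covariate and when any 1 array was left out. At an unadjusted p under 0.05, 16 of the 38 (42.1%) were higher in tacrolimus kidneys, compared with 7.04% of all genes tested, and 1 (2.63%), Proc, was lower, compared with 8.42%. The adjusted p-values of the 16 lay between 0.0527 and 0.294 and their fold differences between 1.32 and 6.08. The groups did not overlap, every tacrolimus array above every control array, for 13 of the 38 (34.2%), compared with 4.35% of all genes. For Proc the order was the reverse, a pattern shown by 5.75% of all genes. These shares are a description only, since the genes were chosen with earlier results of these data known. The median difference of the 38, tacrolimus minus control, was 0.37 on the log2 scale, and 26 of them (68.4%) were above 0, whereas the median of all genes was -0.05 and 39.5% were above 0.

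**Figure D1:**
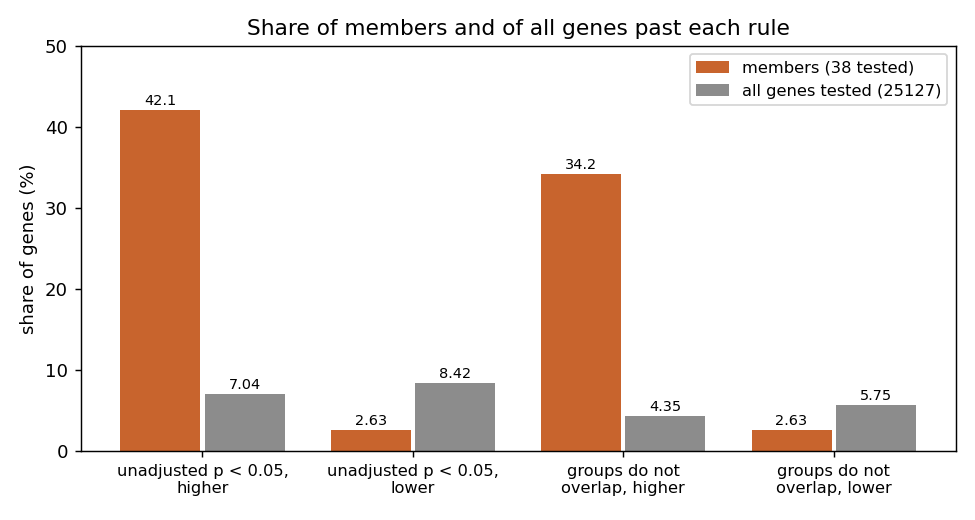
Percentage of the 38 tested complement and coagulation genes and of all 25127 genes that met each description. The vertical axis is the share in percent, and the bars stand for higher or lower genes at an unadjusted p under 0.05 and for groups that did not overlap. The higher bars of the complement and coagulation genes (42.1% and 34.2%) stand above those of all genes (7.04% and 4.35%), and the lower bars (2.63%) do not.

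Counted separately, complement genes held most of the 16 higher genes. Among the 21 tested complement genes, 12 were higher at an unadjusted p under 0.05, none was lower, the groups did not overlap for 11, and the median difference was 0.53. Among the 17 tested genes of coagulation and fibrinolysis, 4 were higher and 1 was lower, the groups did not overlap for 3, and the median difference was 0.11. Over all genes tested, 7.04% were higher and 8.42% lower by that threshold. The groups did not overlap for 4.35% of all genes with tacrolimus higher and for 5.75% with tacrolimus lower. The counts of both sets are counts of genes, and the difference between the sets was not tested.

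**Figure D2:**
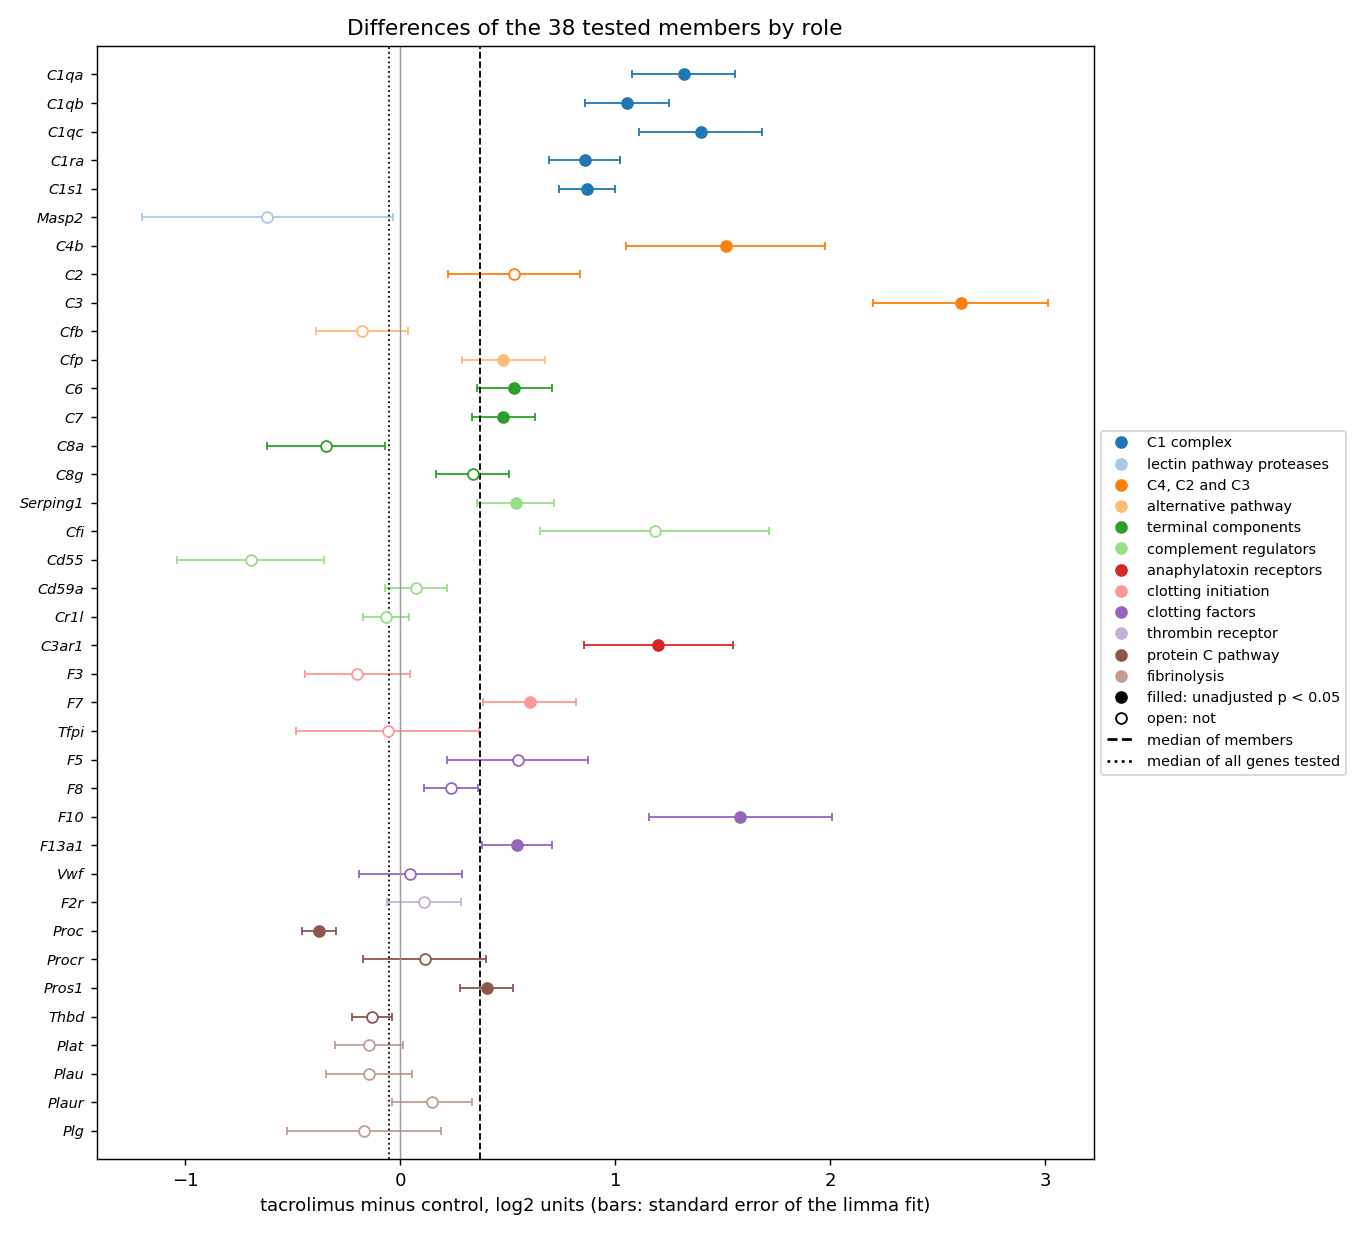
Difference between the group means, tacrolimus minus control, in log2 units for each of the 38 tested genes (points) with the standard error of the limma fit (bars, 4 arrays per group), coloured by role. Filled points had an unadjusted p under 0.05; the dashed line is the median of the 38, 0.37, and the dotted line the median of all genes, -0.05. C3 lies farthest to the right at 2.61, the 5 C1 genes lie between 0.86 and 1.40, and Proc is the filled point on the left at -0.38.

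C1q, the recognition part of the classical pathway, is built from 3 chains whose genes lie side by side. On the array's mm9 positions the probe of C1qc lay 6.64 kb from that of C1qa and 9.19 kb from that of C1qb on chromosome 4. The probes of C1qa, at chr4:136452409-136452468, and C1qb, at chr4:136436578-136436637, both on the minus strand, are shown because they are the sequences that measured neighbouring members of this trio.
C1qa probe: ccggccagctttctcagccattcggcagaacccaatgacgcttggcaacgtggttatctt
C1qb probe: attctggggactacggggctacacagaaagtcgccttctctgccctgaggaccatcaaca

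C1qa levels in control replicates 1 to 4 were -0.33, 0.13, -0.80 and -0.53 and in tacrolimus replicates 1 to 4 were 1.01, 1.41, 0.82 and 0.50. The lowest tacrolimus array stood above the highest control array, control replicate 2. The difference was 1.32 ± 0.24 (SE, n = 4 and 4; limma, adjusted p = 0.0622), or 2.49-fold, with group means of -0.38 ± 0.39 and 0.94 ± 0.38 (SD). C1qb had control levels of -0.71, -0.42, -1.09 and -1.0 and tacrolimus levels of 0.31, 0.62, 0.19 and -0.12. Again no arrays of the groups overlapped, and the difference was 1.05 ± 0.20 (limma, adjusted p = 0.0664). For C1qc the control levels were 0.06, 0.53, -0.53 and -0.27 and the tacrolimus levels 1.62, 1.84, 1.11 and 0.81. The lowest tacrolimus value was again above all controls, by a difference of 1.40 ± 0.29 (limma, adjusted p = 0.0805). All 3 chains had the same order of arrays: tacrolimus replicate 2 highest, then 1, 3 and 4, and control replicate 2 the highest control.

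The promoters of C1qb and C1qc, from the RefSeq sequences of GRCm38.p6, are shown because these neighbours ranked the tacrolimus arrays in the same order. Their 250 bases before the start lie at chr4:136886201-136886450 and chr4:136892915-136893164 on the minus strand. Capitals mark the ETS core GAGGAA, or its reverse complement, and in C1qc also a match to the kappa-B consensus.
C1qb promoter: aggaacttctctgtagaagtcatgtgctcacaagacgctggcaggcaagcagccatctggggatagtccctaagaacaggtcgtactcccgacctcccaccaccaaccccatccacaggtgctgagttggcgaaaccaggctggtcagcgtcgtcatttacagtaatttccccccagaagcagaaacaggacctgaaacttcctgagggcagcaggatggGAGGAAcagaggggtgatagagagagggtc
C1qc promoter: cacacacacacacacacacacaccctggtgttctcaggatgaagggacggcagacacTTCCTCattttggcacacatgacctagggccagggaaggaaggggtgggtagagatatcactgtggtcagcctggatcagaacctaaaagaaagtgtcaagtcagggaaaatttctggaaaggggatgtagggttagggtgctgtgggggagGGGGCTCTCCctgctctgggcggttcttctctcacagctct
The ETS core was 30 to 25 bases before the C1qb start and 193 to 188 bases before the C1qc start, and the kappa-B match 41 to 32 bases before the C1qc start. An ETS core occurs in 23.3% and a kappa-B match in 3.90% of all 32851 promoters of this length, and a match describes the letters only. The same search over both strands of the 250 bases before the start covered the 31 members with a promoter in the table, 13 of them among the 16 higher. These 31 members have 35 promoters, and each motif count is the same by member and by promoter. Of these 31, the ETS core was in 7 and the kappa-B consensus in 1. The C/EBP letters TTGCNNAA, found in 9.56% of all promoters, were in 6 members (C1s1, C3, C9, F11, Plaur and Procr). Of the 13 higher members with a promoter, 2 held these letters. A GAS element, TTCNNNGAA, found in 7.02% of all promoters, was in 4 members (C7, C8a, Masp2 and Pros1). A TATA box, TATAAA, found in 12.4% of all promoters, was in 3 members (C3ar1, C7 and Tfpi). The ISRE, in 2.98% of all promoters, was in 1 member, and the HNF1 element, in 0.371%, in 0. Motifs were counted separately, whether or not they overlapped. Members without an entry were Serping1, Plat, C2, C1qa, Masp1, Thbd, Cfb, Proc, Plg, Vwf, Plau, C4b and Cfi.

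C1ra and C1s1 encode the proteases that C1q carries, and their probes lie 7.72 kb apart on chromosome 6. C1ra levels were 1.34, 1.21, 0.96 and 1.20 in controls and 2.12, 2.42, 1.68 and 1.93 in tacrolimus kidneys. Every tacrolimus array stood above every control array, with a difference of 0.86 ± 0.16 (limma, adjusted p = 0.0704). A further C1ra probe differed by the same 0.86 ± 0.14. C1s1 levels were 0.67, 0.90, 0.49 and 0.70 in controls and 1.58, 1.82, 1.35 and 1.47 in tacrolimus kidneys. C1s1 had the smallest spread of the C1 genes relative to its difference, 0.87 ± 0.13 (1.82-fold; limma, adjusted p = 0.0527), and its groups did not overlap. The promoter of C1s1 (GRCm38.p6, chr6:124542360-124542609, minus strand) is shown for comparison with that of C3 further down, since both hold the C/EBP letters, in capitals.
C1s1 promoter: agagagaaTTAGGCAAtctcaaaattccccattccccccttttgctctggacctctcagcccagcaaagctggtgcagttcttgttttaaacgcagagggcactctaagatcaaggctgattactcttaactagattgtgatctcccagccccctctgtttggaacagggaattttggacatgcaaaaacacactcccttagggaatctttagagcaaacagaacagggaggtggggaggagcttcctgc
The match lies 242 to 235 bases before the start. The same letters are in the promoters of C9, F11, Plaur and Procr. C9 and F11 were not tested, and Plaur and Procr did not pass an unadjusted p of 0.05.

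Of the lectin pathway proteases, Masp2 was tested and Masp1, with 3 probes, was well above background on no more than 1 array by any of them. Masp2 levels were -2.15, -2.66, -1.19 and -1.53 in controls and -4.30, -1.79, -2.11 and -1.82 in tacrolimus kidneys. Tacrolimus replicate 1 lay far below the rest, and the groups overlapped. The difference of -0.62 ± 0.58 (limma, adjusted p = 0.623) was close to the size of its error, and it was -0.021 without tacrolimus replicate 1. A further Masp2 probe, well above background on all arrays, differed by -0.42 ± 0.50.

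C4b, C2 and C3 form and feed the C3 convertase. C4b levels, which could include signal of the near-identical copy C4a, were 2.62, 2.47, 2.75 and 1.27 in controls and 4.43, 4.51, 3.46 and 2.77 in tacrolimus kidneys. The lowest tacrolimus level, 2.77, was only just above the highest control level, 2.75. The difference was 1.51 ± 0.46 (2.85-fold; limma, adjusted p = 0.197), and cross-hybridisation with C4a was not checked. C2, the protease part of the convertase, differed by 0.53 ± 0.31 (limma, adjusted p = 0.426), with tacrolimus replicates 1 and 2 above all controls and replicates 3 and 4 within or below their range.

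C3 was the gene with the largest difference. Its control levels were 2.76, 2.90, 1.98 and 1.54 and its tacrolimus levels 4.49, 5.94, 4.65 and 4.52. Every tacrolimus array exceeded every control array, and tacrolimus replicate 2 stood well above the other treated arrays. The difference was 2.61 ± 0.41, 6.08-fold (limma, adjusted p = 0.0552). A further C3 probe read 2.25, 2.40, 1.75 and 1.57 in controls and 3.27, 4.55, 3.63 and 3.32 in tacrolimus kidneys, a difference of 1.70 ± 0.31 with the same order of groups. That probe lies at chr17:57343678-57343737 (mm9, minus strand), and its sequence is shown because it gave the smaller difference of both C3 probes. The C3 promoter (GRCm38.p6, chr17:57228137-57228386, minus strand) holds the C/EBP letters, in capitals, 45 to 38 bases before the start.
C3 further probe: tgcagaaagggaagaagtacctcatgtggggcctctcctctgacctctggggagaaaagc
C3 promoter: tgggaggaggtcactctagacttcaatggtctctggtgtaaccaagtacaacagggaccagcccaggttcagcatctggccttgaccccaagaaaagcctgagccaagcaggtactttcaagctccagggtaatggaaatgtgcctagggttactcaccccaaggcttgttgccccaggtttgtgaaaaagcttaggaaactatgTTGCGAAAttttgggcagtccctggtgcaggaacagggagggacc

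Of the alternative pathway genes, properdin differed and factor B did not pass an unadjusted p of 0.05. Factor B (Cfb), the protease of the alternative convertase, had levels between 5.79 and 6.09 in controls and 5.09 and 6.16 in tacrolimus kidneys, a difference of -0.18 ± 0.21 (limma, adjusted p = 0.710). Its probe lies 6.07 kb from that of C2 on chromosome 17. Properdin (Cfp), which stabilises that convertase, had levels of 0.17, 0.21, 0.14 and 0.11 in controls and 0.67, 1.12, 0.68 and 0.09 in tacrolimus kidneys. Tacrolimus replicate 4 lay below all controls, so that the groups overlapped. The difference was 0.48 ± 0.19 (limma, adjusted p = 0.294), and of the 8 refits leaving out 1 array its unadjusted p stayed under 0.05 in that without tacrolimus replicate 4 alone, where the difference was 0.66.

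Among the terminal components, C6 and C7, which begin the membrane attack complex, were dim and had an unadjusted p under 0.05. C6 levels were -4.92, -4.73, -4.88 and -5.08 in controls and -3.93, -4.65, -4.65 and -4.26 in tacrolimus kidneys. No arrays of the groups overlapped, though tacrolimus replicates 2 and 3 lay close to control replicate 2, and the difference was 0.53 ± 0.17 (limma, adjusted p = 0.222). C7 levels were -4.48, -4.43, -4.47 and -4.60 in controls and -4.26, -4.17, -4.05 and -3.59 in tacrolimus kidneys. Tacrolimus replicate 4 was highest and no arrays overlapped, with a difference of 0.48 ± 0.15 (limma, adjusted p = 0.199). A further C7 probe, well above background on 1 control and 4 tacrolimus arrays, differed by 1.09 ± 0.38, and its groups overlapped. C8a and C8g, chains of C8, differed by -0.35 ± 0.27 and 0.34 ± 0.17 without passing an unadjusted p of 0.05. For C8b and C9 no array read the probe well above background. With the normexp correction the differences of dim genes were smaller, at 0.22 for C6, 0.20 for C7, 0.52 for C3ar1 and 0.26 for F7. C7 did not keep an unadjusted p under 0.05 with that correction, and C6, C7 and F7 did not in the deposited table.

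Of 5 regulators, only Serping1, the C1 inhibitor that stops C1r and C1s, had an unadjusted p under 0.05. Its levels were 3.05, 3.03, 3.1 and 2.74 in controls and 3.86, 3.78, 3.16 and 3.26 in tacrolimus kidneys. The groups did not overlap, with tacrolimus replicate 3 just above the highest control, and the difference was 0.54 ± 0.18 (limma, adjusted p = 0.227). A further probe differed by 0.61 ± 0.15. Cfi, the protease that inactivates C3b and C4b, differed by 1.18 ± 0.53 (limma, adjusted p = 0.331) with control levels as far apart as -0.04 and -2.18. Cd55, which dissociates convertases on cell surfaces, had the most negative difference of the 38, -0.70 ± 0.34 (limma, adjusted p = 0.363), with levels of 0.62 to 1.23 in controls and -0.77 to 0.90 in tacrolimus kidneys. Its difference was -0.94 without tacrolimus replicate 1, its highest tacrolimus array, which passed an unadjusted p of 0.05, and -0.39 without tacrolimus replicate 2, its lowest, which did not and was smaller than that of Masp2. Cd59a, which blocks the membrane attack complex, and Cr1l (Crry), a rodent regulator of C3 convertases, differed by 0.07 ± 0.15 and -0.07 ± 0.11.

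Of the anaphylatoxin receptors, C3ar1, the C3a receptor found on macrophages and other myeloid cells, had levels of -4.48, -4.64, -5.62 and -5.30 in controls and -3.41, -3.18, -4.36 and -4.28 in tacrolimus kidneys. Tacrolimus replicates 1 and 2 were highest and the others still stood above all controls. The difference was 1.20 ± 0.35 (2.30-fold; limma, adjusted p = 0.179). C5ar1, the C5a receptor, was well above background on no control array and 2 of the 4 tacrolimus arrays, replicates 1 and 2, at -6.25 and -5.78, and no fold is given. Bulk RNA cannot tell more cells of a type from more RNA per cell, and that holds for each gene described here.

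**Figure D3:**
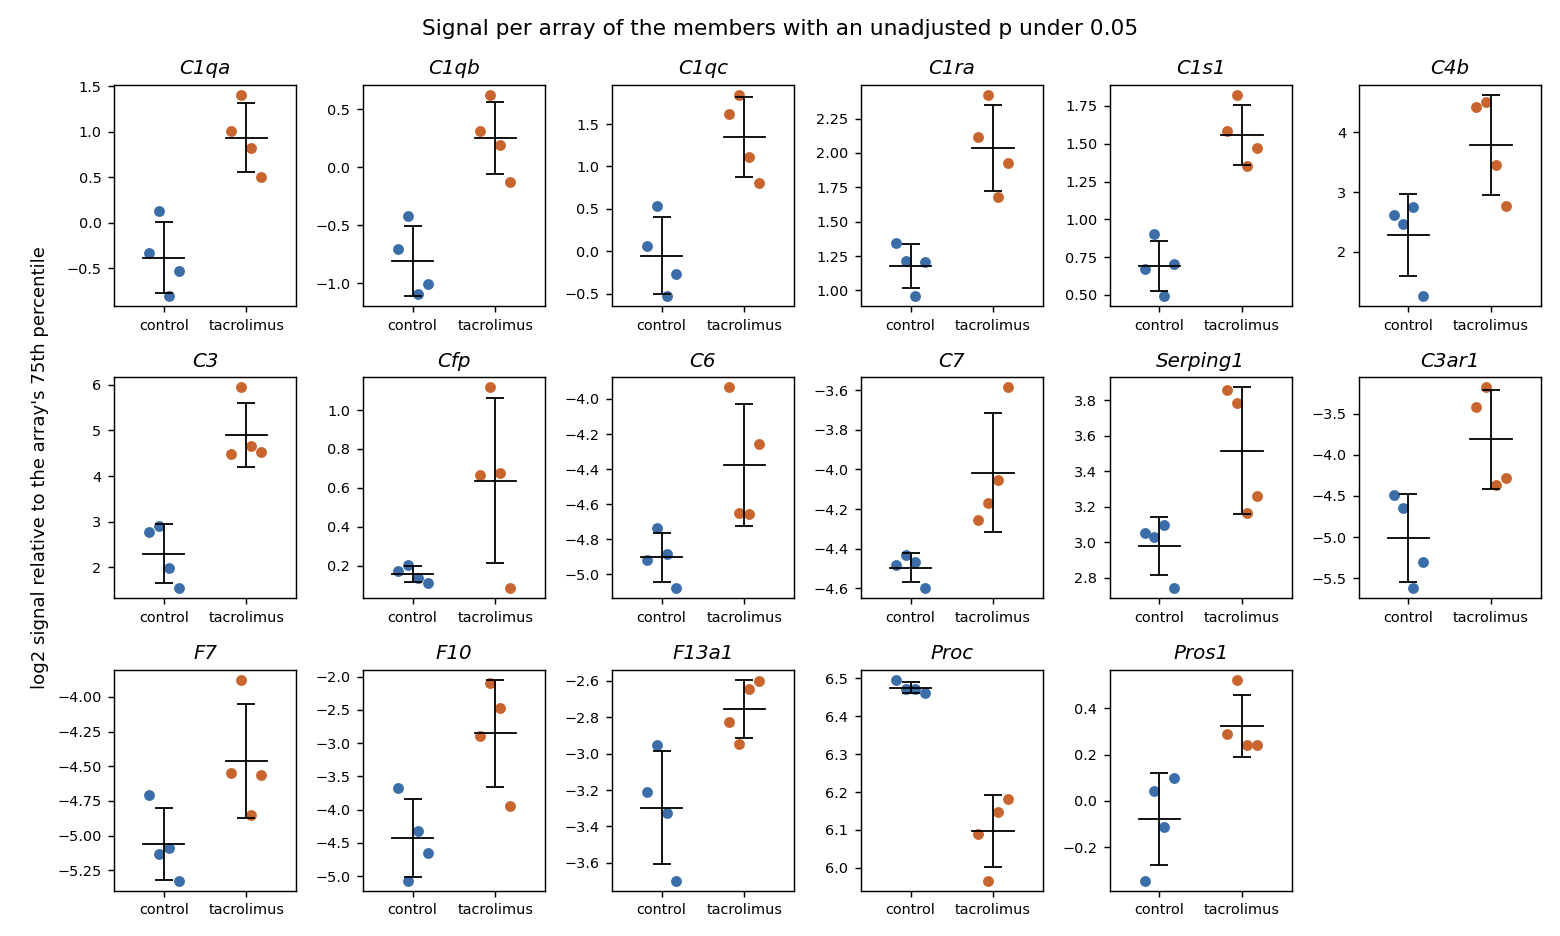
Level of the members with an unadjusted p under 0.05 on each array, in log2 units relative to the array's 75th percentile, control replicates 1 to 4 and tacrolimus replicates 1 to 4 as points, with the group means as lines and their SD as bars. Levels are to be compared within a gene. C3 in tacrolimus replicate 2, at 5.94, stands apart from the other treated arrays at 4.49 to 4.65, and Proc is lower on every tacrolimus array.

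Clotting starts with tissue factor (F3), the cell-surface trigger, and factor VII (F7), its plasma partner, and is held back by tissue factor pathway inhibitor (Tfpi). F3 differed by -0.20 ± 0.24 and Tfpi by -0.06 ± 0.43, values below their errors. F7 was dim, with levels of -4.71, -5.13, -5.09 and -5.33 in controls and -4.55, -3.88, -4.85 and -4.56 in tacrolimus kidneys. Tacrolimus replicate 3 lay below control replicate 1, so the groups overlapped. The difference was 0.60 ± 0.22 (limma, adjusted p = 0.255). It did not keep an unadjusted p under 0.05 without control replicate 2 or without control replicate 4. A further F7 probe was well above background on 3 tacrolimus arrays and on no control array, at least 1.36-fold brighter in tacrolimus kidneys. It did not meet the filter and was not tested. Its mm9 position, chr8:13035257-13035316, overlaps that of the first probe, chr8:13035287-13035346, so it is not a separate reading of F7.

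Of the clotting factors, F10 and F13a1 were higher. Factor X (F10) is the protease that makes thrombin, and its probe lies 20.49 kb from that of F7 on chromosome 8. Its sequence is shown because F10 had the largest difference among the coagulation members (mm9, chr8:13055774-13055833, plus strand).
F10 probe: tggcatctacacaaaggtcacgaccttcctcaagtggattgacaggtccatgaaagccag
F10 levels were -3.68, -5.07, -4.33 and -4.65 in controls and -2.90, -2.09, -2.47 and -3.95 in tacrolimus kidneys. Tacrolimus replicate 4 lay below control replicate 1, and the groups overlapped by that array alone. The difference was 1.58 ± 0.43 (2.99-fold; limma, adjusted p = 0.152), and it was 0.86 with the normexp correction and 1.08 in the deposited table. F13a1, the factor XIII chain that cross-links fibrin and is also made by macrophages and platelets, had levels of -3.21, -2.95, -3.33 and -3.70 in controls and -2.83, -2.95, -2.65 and -2.60 in tacrolimus kidneys. The lowest tacrolimus array lay only just above the highest control array, and the difference was 0.54 ± 0.16 (limma, adjusted p = 0.190). The cofactors F5 and F8 differed by 0.54 ± 0.33 and 0.23 ± 0.13 and von Willebrand factor (Vwf), an endothelial product that carries factor VIII, by 0.05 ± 0.24. Prothrombin (F2) was well above background on 1 control and 2 tacrolimus arrays and F11 on 1 control array, so that neither was tested.

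F2r, the thrombin receptor PAR1, had levels of 3.14, 3.27, 3.47 and 3.15 in controls and 2.98, 3.77, 3.25 and 3.47 in tacrolimus kidneys. The groups overlapped throughout, with a difference of 0.11 ± 0.17 (limma, adjusted p = 0.789).

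In the protein C pathway, Proc and its cofactor Pros1 differed in opposite directions. Protein C (Proc), which once activated inactivates factors V and VIII, had control levels of 6.5, 6.47, 6.47 and 6.46 and tacrolimus levels of 6.09, 5.97, 6.15 and 6.18. The controls lay close together, with an SD of 0.01, and all tacrolimus arrays were lower. The difference was -0.38 ± 0.08, so that the control level was 1.30-fold the tacrolimus level (limma, adjusted p = 0.0896). Pros1 levels were -0.35, 0.04, -0.11 and 0.10 in controls and 0.29, 0.52, 0.24 and 0.24 in tacrolimus kidneys. All tacrolimus arrays were higher, by 0.40 ± 0.12 (limma, adjusted p = 0.198). Procr and thrombomodulin (Thbd), the receptors that help activate protein C on endothelium, differed by 0.11 ± 0.28 and -0.13 ± 0.09.

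None of the 4 fibrinolysis genes had an unadjusted p under 0.05. Urokinase (Plau), which activates plasminogen and is abundant in kidney tubules, had levels of 2.58, 2.47, 2.42 and 2.63 in controls and 2.56, 1.83, 2.29 and 2.84 in tacrolimus kidneys. Tacrolimus replicate 2 was the lowest and replicate 4 the highest of all arrays, and the difference was -0.14 ± 0.20 (limma, adjusted p = 0.755). Tissue plasminogen activator (Plat), the urokinase receptor (Plaur) and plasminogen (Plg) differed by -0.15 ± 0.16, 0.15 ± 0.18 and -0.17 ± 0.36.

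The treated arrays did not contribute equally. Of the 16 higher genes, tacrolimus replicate 2 had the highest level in 12, tacrolimus replicate 3 the lowest treated level in 7 and replicate 4 in 6. Averaged over the 16, tacrolimus replicates 1 to 4 stood 1.09, 1.38, 0.83 and 0.70 above the control mean, against 0.17, 0.19, -0.12 and -0.24 for control replicates 1 to 4. Leaving out any 1 array gave between 14 and 18 higher genes.

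Marker genes of other cell types also differed between the groups. Among 15 tested macrophage markers, 12 were higher and 0 lower by the same unadjusted threshold, with a median difference of 1.03. Their mean level relative to the control mean was 0.05, 0.45, -0.31 and -0.19 in control replicates 1 to 4 and 1.11, 1.33, 0.69 and 0.79 in tacrolimus replicates 1 to 4. The mean of the 3 C1q chains on the same scale was 0.09, 0.49, -0.39 and -0.19, then 1.39, 1.70, 1.12 and 0.81. The macrophage markers Csf1r, Mertk and Fcgr1 differed by 0.06, 0.13 and -0.06 and did not pass, and Cd163 was not tested. Of 10 fibroblast markers 8 were higher, with a median of 0.94, mean levels of -0.08 to 0.12 in controls and 0.46 to 1.18 in tacrolimus kidneys, and Col1a2 the gene that rose past the adjusted threshold (limma, adjusted p = 0.0462). Of 6 tested adipocyte markers 5 were higher, with a median of 3.24 and levels of -0.64 to 1.49 in controls and 1.70 to 4.58 in tacrolimus kidneys. Only 2 of the 6 were well above background on all 8 arrays. Plin1 was so on 0 control arrays, Adipoq on 1, Cidec on 2 and Retn on 3, and each of them on all 4 tacrolimus arrays. Their control levels are therefore partly background. The part of these cell types in the results was not tested. With the mean of the 6 adipocyte markers as a covariate, 9 of the members were higher and 2 were lower by the unadjusted threshold, and C3 differed by 2.60, C1qa by 1.35 and C1qc by 1.44. With that covariate F10 differed by 2.87, while C6, C7 and F13a1 differed by 0.26, 0.11 and 0.20 and did not pass. Serping1, C3ar1, F7 and Pros1 did not pass either. They differed by 0.67, 1.27, 0.72 and 0.42 with the covariate and by 0.54, 1.20, 0.60 and 0.40 without it. Adipocyte levels did not overlap between the groups, so that this model cannot separate them well from treatment. Without control replicate 2 and tacrolimus replicate 4, the arrays with the highest adipocyte level of their group, 17 members were higher. That refit was not planned and did not remove the adipocyte difference. The adipocyte levels left were -0.31, -0.64 and -0.54 in controls and 2.26, 1.70 and 1.75 in tacrolimus kidneys. The share of all genes past the unadjusted threshold was not counted in this refit or with the covariate.

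Hepatocytes, which make most plasma complement and clotting proteins, and the cells that carry clotting were checked in the same way. Of 8 tested hepatocyte markers 0 passed an unadjusted p of 0.05 in either direction, with a median of 0.17, and their mean level was -0.18 to 0.38 in controls and 0.16 to 0.94 in tacrolimus kidneys. Albumin (Alb) differed by -0.15, haptoglobin (Hp) by 0.85 (limma, adjusted p = 0.324) and Fgb, a fibrinogen chain read well above background on 1 control and 3 tacrolimus arrays, by 3.29 ± 1.53. Fgb had the largest difference of the 8, with levels of -8.13 to -3.10 in controls and -7.40 to -1.76 in tacrolimus kidneys. The mean level of the list leans on it. Of 6 tested platelet markers 1, Pf4, was higher, by 1.11, and of 12 endothelial markers 0 were, with a median of -0.05. Neutrophil markers had a median of -0.39 over 7 tested genes with 0 past the threshold. Of 4 tested urothelium markers 0 passed, but their mean level was 2.18 and 3.78 above the control mean in tacrolimus replicates 1 and 4 and -0.64 and -0.63 in replicates 2 and 3. The 10 nephron markers had a median of -0.12, with 1, Calb1, higher by 1.24.

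**Figure D4:**
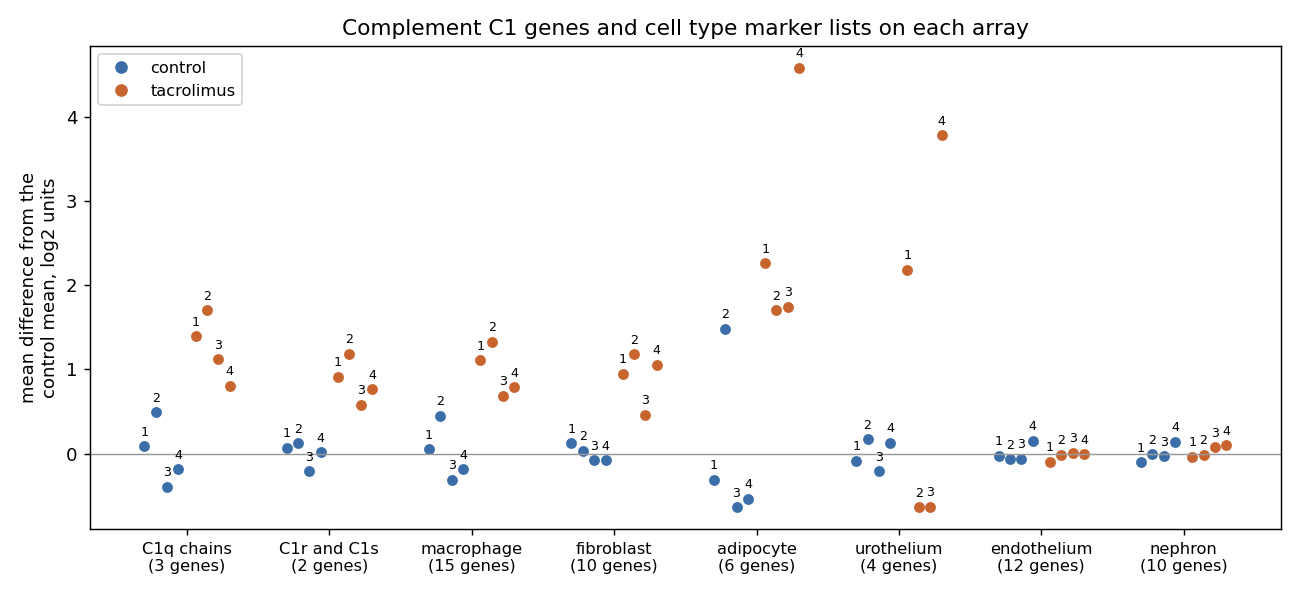
Mean level of marker and member groups on each array, in log2 units relative to the mean of the control arrays, for control replicates 1 to 4 and tacrolimus replicates 1 to 4. C1q chains and macrophage markers are highest on tacrolimus replicate 2, at 1.70 and 1.33. So are C1r and C1s, at 1.19, and fibroblast markers, at 1.18. Adipocyte markers are highest on tacrolimus replicate 4, at 4.58.

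Other genes of both pathways, a fixed list of each, were counted in the same way. Of 28 further complement genes 22 were tested, 7 were higher and 1 was lower by the unadjusted threshold (31.8% higher, against 7.04% of all genes), and their median was 0.18. Among those with the lowest p was Itgam, a chain of complement receptor 3 (difference -0.44 ± 0.08 by its brightest probe). Further Itgam probes differed in opposite directions, by 0.13 ± 0.10 and -0.34 ± 0.19, and did not pass. Also among those with the lowest p were Colec12, a scavenger receptor of the collectin family (0.63 ± 0.17), and factor D (Cfd). Factor D, the alternative pathway protease made by adipocytes, differed by 4.66 ± 1.36. The adjusted p of Itgam was 0.0584 in limma. Of 32 further coagulation genes 25 were tested, 5 were higher (20%, against 7.04% of all genes) and 1, A2m, was lower, with a median of 0.02. Fgg, a chain of fibrinogen, differed by 1.84 ± 0.50, 3.58-fold. Anxa2, a cell-surface plasminogen receptor, differed by 0.60 ± 0.14 and F2rl1, the receptor PAR2, by 0.54 ± 0.14, and none of the 3 passed the adjusted threshold.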

How the data were processed

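Total RNA of whole kidneys (0.2 ug, RIN 9 for all samples, per the labels) carried a Cy3 label on 1-colour Agilent mouse arrays with 62976 features. Per the file headers, the deposited scanner files were made with Agilent Feature Extraction 10.7.3.1, and their intensity values are background-subtracted, with no normalization across arrays. In the deposited value table, log2 values equal, within 5.0e-09, the quantile-normalized median intensity. Limma appears in the submitters' processing notes, with settings not given in the sources used here.

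Levels are log2 of the processed intensity minus each array's 75th percentile over 59305 non-control spots. Spots of a probe were averaged without outlier spots. A gene was represented by its brightest probe among those well above background on at least 4 of 8 arrays. The test was limma's (version 3.58.1, R 4.3.3; lmFit, eBayes, two-sided), run with Benjamini-Hochberg adjustment over 25127 genes, and the code was tested on simulated data. Probe positions are mm9, as the array annotation gives them, and exon annotation and cross-hybridisation were not checked. Promoters came from RefSeq for GRCm38.p6 (31 of 44 members).

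Full values are given for members at an unadjusted p under 0.05 and for the brightest tested member of each role without one. Of each further pathway list, genes among the 4 with the lowest p are named; some of these are not reported here but stay in the counts. The members, lists and tests were chosen with earlier results of these data known. Alternatives tried were normalization, background correction, the deposited table, filters, the probe rule, an intensity trend with robust estimation, the replicate number as a block, adipocyte marker level as a covariate and leaving out arrays.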

Additional observations from a re-analysis of the deposited data

Results flagged for a closer look

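Each of the 38 tested genes was checked in both groups of 4 arrays, and 3 of these 76 sets held an array so far from the other arrays, relative to their range, that it passed Dixon's 95% limit for 4 samples, and chance gives about 1 in 20 groups. Masp2 in tacrolimus replicate 1 was -4.30, with the other treated arrays at -2.11 to -1.79. C3 in tacrolimus replicate 2 was 5.94, above the others at 4.49 to 4.65. Pros1 in tacrolimus replicate 2 was 0.52, with the others at 0.24 to 0.29. Tacrolimus replicate 2 was the outlying array for 2 of the 3, and it was also the array with the highest level for 12 of the 16 higher genes.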

How the results depend on the processing

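The 17 members at an unadjusted p under 0.05 kept their direction in all 18 alternatives, and 9 of the 17 stayed under 0.05 in all of them. Members past the adjusted threshold numbered 0 in the main setting, and 6 with normexp background (C1qa, C1qb, C1qc, C1ra, C1s1 and C3), 3 with the deposited table, 2 with the filter on all 8 arrays, 6 with trend and robust estimation and 6 with the replicate block (C1qa, C1qb, C1qc, C1s1, C3 and C3ar1). In every other alternative they numbered 0. Higher members numbered 16, and 9 with the adipocyte covariate. Lower members numbered 1, and 2 with the block, with that covariate or without tacrolimus replicate 1. The median difference of 0.37 was 0.21 with normexp, 0.23 with the deposited table, 0.28 without a filter, and 0.28 to 0.41 over arrays left out. Genes called numbered 57, and 286 with normexp, 181 with the deposited table, 32 without a filter, 151 with the filter on all 8 arrays, 221 with trend and robust estimation, 103 with the block, 5 with the covariate, 8 without control replicate 2 and tacrolimus replicate 4 together, and 7 to 56 over arrays left out. Of the 57, 82.5% were higher, against 71.5% with the filter on all 8 arrays, 71.0% with trend and robust estimation, 90.3% with the block, 100% with the covariate and 78.8% to 100% over arrays left out. The cause was not tested. Same-numbered arrays of both groups correlated at 0.156, 0.021, 0.143 and 0.055 in their deviations from the group means, and since not all 4 exceeded 0.1, the numbers were not taken as pairs, although each array but tacrolimus replicate 2 correlated best with its own number.

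In 12 of the 38 tested members, none of them at an unadjusted p under 0.05, the sign turned in some alternative. Cr1l was 0.0085 with quantile normalization, Tfpi 0.0028 with the mean of probes, and Tfpi 0.85, Cd59a -0.026, Procr -0.32 and Plat 0.17 with the covariate. Without control replicate 2 and tacrolimus replicate 4, Cd59a was -0.036, Procr -0.037, Plg 0.017 and Vwf -0.077. Over single arrays left out, Tfpi ranged from -0.33 to 0.26, Procr from -0.078 to 0.33, F3 from -0.38 to 0.044, Plg from -0.42 to 0.063, Vwf from -0.10 to 0.22, F2r from -0.027 to 0.24, Plau from -0.30 to 0.039, Plaur from -0.016 to 0.25 and Cfb from -0.32 to 0.035. The dim member C3ar1 differed by 0.52 with normexp and 0.63 with the deposited table, against 1.20.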
